A study of Mus musculus with 8 samples.

Results

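The 7 genes described here encode the SoxB1 transcription factors (*Sox1*, *Sox2* and *Sox3*), the related SoxB2 factor *Sox21*, and the SoxC factors (*Sox4*, *Sox11* and *Sox12*). They were chosen by family, with earlier results of these data known. Each was found by gene identifier among the 48440 genes listed in each of 8 RNA sequencing libraries. All 7 passed the filter on low counts and stood among the 17049 genes tested. The libraries were made from poly(A) RNA of mouse embryonic stem (ES) cells of the MK6 line (C57BL/6J), collected on day 1 of differentiation in a medium without LIF to which the GSK3 inhibitor CHIR99021 had been added. The 4 genotypes differ at *Tbxt*, the gene of the T-box factor Brachyury, and each has 2 libraries. Wild-type cells carry no edit. *Tbxt* Δexon6/Δexon6 cells (delE6/delE6 in the labels) lack exon 6 on both alleles, and their libraries come from different clones. *Tbxt* Δexon6/+ cells (delE6/+) have 1 allele without it and 1 intact allele. The insASAY/insASAY line (Insert ASAY) carries the human AluY and AluSx1 elements around exon 6 on both *Tbxt* alleles, a design under which part of the transcript skips exon 6 after differentiation. The sources used here do not say whether the libraries of the other 3 genotypes come from 1 clone or several, so an effect of the edit and a property of a clone cannot be told apart in them. By the paper's methods, exon 6 was deleted in feeder-free culture under blasticidin. The Alu pair was inserted on feeder cells under puromycin, with Cre and ganciclovir used later to remove the marker. Edit and way of making are thus confounded between insASAY/insASAY and the deletion lines.

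SoxB1 factors bind DNA through a high mobility group domain and keep progenitor cells undifferentiated. In ES cells Sox2 pairs with Oct4 (*Pou5f1*) on composite DNA elements near pluripotency genes, and in the early embryo Sox2, Sox1 and Sox3 mark the neural plate, with Sox2 also present together with Brachyury in the neuromesodermal progenitors that extend the body axis. Sox21 belongs to the SoxB2 group, which binds the same sequences and mostly represses. SoxC factors act later in neurogenesis, when progenitors leave the cycle and switch on neuronal genes, and are also found in many mesenchymal progenitors.

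Each of the 7 genes is annotated as a single exon, so the values below are not affected by splicing. On GRCm38, *Sox1* lies on the plus strand of chromosome 8 (12395295 to 12400126), *Sox2* on the plus strand of chromosome 3 (34650405 to 34652461) and *Sox3* on the minus strand of chromosome X (60891366 to 60893430). *Sox21* lies on the minus strand of chromosome 14 (118233232 to 118237030). The SoxC genes lie on the minus strands of chromosome 13 (*Sox4*, 28948919 to 28953713), chromosome 12 (*Sox11*, 27334264 to 27342574) and chromosome 2 (*Sox12*, 152393611 to 152398063). The 7 genes are therefore on 7 different chromosomes. *Sox2* lies inside the long non-coding gene *Sox2ot* and *Sox1* inside *Sox1ot*, both on the same strand, with 2 to 9 and 0 to 2 reads a library. Reads that fit both genes of such a pair are not counted, so that the levels of *Sox1* and *Sox2* may be understated. *Gm26735*, on the strand opposite to *Sox4*, had 21 to 39 reads a library. *Tbxt* itself was listed as *T*.

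The promoters of 4 of them are shown because these genes divide by their behaviour in the *Tbxt* Δexon6/+ line, with *Sox2* and *Sox11* called higher and *Sox4* and *Sox12* not called. Each sequence is the 250 bases before the RefSeq start on GRCm38.p6, read 5′ to 3′ on the strand of the gene, with every match to 5 searched motifs in capitals:
*Sox2*, chr3:34649745-34649994, plus strand: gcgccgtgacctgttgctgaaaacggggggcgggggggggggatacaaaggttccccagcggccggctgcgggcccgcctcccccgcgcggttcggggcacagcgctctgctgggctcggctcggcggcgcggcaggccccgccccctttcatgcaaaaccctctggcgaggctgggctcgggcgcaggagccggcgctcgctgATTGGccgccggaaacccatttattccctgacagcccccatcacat
*Sox11*, chr12:27342719-27342968, minus strand: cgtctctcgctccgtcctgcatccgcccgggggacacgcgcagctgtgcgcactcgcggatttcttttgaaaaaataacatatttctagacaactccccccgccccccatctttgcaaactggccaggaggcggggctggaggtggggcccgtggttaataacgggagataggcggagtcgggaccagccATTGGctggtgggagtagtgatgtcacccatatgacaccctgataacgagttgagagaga
*Sox4*, chr13:28953700-28953949, minus strand: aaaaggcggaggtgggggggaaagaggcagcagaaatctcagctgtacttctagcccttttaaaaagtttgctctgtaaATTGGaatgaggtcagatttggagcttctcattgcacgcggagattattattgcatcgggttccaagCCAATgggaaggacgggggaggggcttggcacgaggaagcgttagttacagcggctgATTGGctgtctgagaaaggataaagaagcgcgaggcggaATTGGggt
*Sox12*, chr2:152398047-152398296, minus strand: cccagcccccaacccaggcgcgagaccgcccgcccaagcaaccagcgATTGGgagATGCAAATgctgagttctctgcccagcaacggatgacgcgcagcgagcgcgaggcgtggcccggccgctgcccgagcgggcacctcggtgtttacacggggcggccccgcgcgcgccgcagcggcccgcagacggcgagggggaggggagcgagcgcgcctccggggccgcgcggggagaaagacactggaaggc

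The motifs were the octamer bound by POU factors (ATGCAAAT), a Sox core (ACAAT), a T-box core (GGTGTG), the CCAAT box (CCAAT) and a TCF core (CTTTGA), each on both strands, and RefSeq promoters were at hand for 6 of the 7 genes. A CCAAT box was found in 5 of the 6, against 33.8% of all 32851 promoters, and *Sox4* held 4 of them. The octamer was found in *Sox12*, from 195 to 188 bases before the start, against 1.60% of all promoters. *Sox21* was the 1 gene of the 6 with a TCF core, which 13.8% of all promoters hold. No Sox core and no T-box core was found in any of the 6, while 27.7% and 16.3% of all promoters hold them. The letters alone thus did not separate the genes that were called from those that were not, and the *Sox2* promoter, with 72.0% G and C, was as rich in G and C as that of *Sox12* (74.4%), against a median of 52.4%.

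The libraries held 24618587 to 28445952 reads assigned to genes on the strand of the kit. CPM values are counts scaled to the 24603917 to 28428979 reads on tested genes with TMM factors, and the lowest count of a Sox gene in any library was 75 (*Sox21*). *T* was low in all libraries, at 47 and 42 reads in wild-type, 26 and 22 in Δexon6/Δexon6, 39 and 54 in Δexon6/+ and 30 and 29 in insASAY/insASAY cells. Its Δexon6/Δexon6 level was below that of wild-type (log2 fold change -0.81, adjusted p = 0.0360 by edgeR's quasi-likelihood F-test, Benjamini-Hochberg), while DESeq2 gave an adjusted p of 0.162. Counts over a whole gene do not show whether exon 6 was present. Of the markers of the labelled cell type, *Pou5f1* was at 156 to 295 CPM and *Nanog* at 13.8 to 38.7 CPM. Of streak and mesoderm markers, *Eomes* was at 6.36 to 20.4 CPM, *Cdx1* at 8.26 to 15.2 CPM and *Msgn1* at no more than 0.0744 CPM. Of endoderm markers, *Gata4* was at 5.17 to 9.53 CPM and *Cer1* was at 0 in all 8 libraries. A gene was called when its adjusted p was below 0.05 and its log2 fold change lay beyond 0.5 in either direction.

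Compared per length, *Sox2* was the most abundant of the 7 in wild-type cells. Its level of 33.4 ± 1.72 RPKM (CPM per kilobase of exon, SD, n = 2) stood at the 90.5th percentile of the tested genes. *Sox4* (22.6 RPKM) and *Sox12* (18.0 RPKM) followed, then *Sox11* (5.36 RPKM) and *Sox3* (2.72 RPKM). *Sox1* (1.21 RPKM) and *Sox21* (0.969 RPKM) were the lowest, at the 29.6th and 26.4th percentiles. No pair of neighbours in this order overlapped between the wild-type libraries, although *Sox1* (1.11 and 1.31 RPKM) and *Sox21* (0.940 and 0.998 RPKM) came close. In Δexon6/Δexon6 cells *Sox2* (31.9 and 23.0 RPKM) and *Sox4* (24.0 and 27.8 RPKM) did overlap, so their order is not set there. Day 1 cells thus held far more *Sox2* than *Sox1* or *Sox3* transcript per length in every genotype.

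The comparison of Δexon6/+ with wild-type cells, which sets the line with 1 deleted exon 6 beside unedited cells on day 1, gave the most calls against wild-type among the 7 genes. Of the 7 genes, 5 were higher and 0 lower, with a median log2 fold change of 0.86. Over all tested genes 6.60% were called higher (13.5% in either direction) and the median was 0.00. All 3 SoxB1 genes, *Sox21* and *Sox11* rose, and *Sox4* and *Sox12* did not pass. In bulk RNA, a change in the share of cells of a type and a change in RNA per cell cannot be told apart.

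*Sox1*, which becomes restricted to the neural lineage, had the largest difference of the 7. It was at 6.32 and 5.36 CPM in wild-type, 7.33 and 6.20 in Δexon6/Δexon6, 7.91 and 5.85 in insASAY/insASAY, and 24.5 and 23.6 CPM in Δexon6/+ cells. Both Δexon6/+ libraries were far above the other 6, among which the genotypes overlapped. The rise over wild-type was 4.11-fold (95% interval 3.34 to 5.06, log2 fold change 2.04 ± 0.139 SE, adjusted p = 4.12e-07, edgeR, Benjamini-Hochberg).

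*Sox2*, the partner of Oct4, was at 71.2 and 66.2 CPM in wild-type, 65.5 and 47.3 in Δexon6/Δexon6, 66.0 and 66.2 in insASAY/insASAY and 117 and 109 CPM in Δexon6/+ cells. The Δexon6/+ libraries were again the highest, and the other 6 lay close together except for the second Δexon6/Δexon6 clone, which was the lowest. The rise was 1.64-fold (1.41 to 1.92, log2 fold change 0.72 ± 0.105 SE, adjusted p = 0.000199, edgeR, Benjamini-Hochberg). A test against the fold threshold itself (edgeR glmTreat at log2 0.5) gave an adjusted p of 0.124, so the data place *Sox2* above wild-type but not beyond that threshold.

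*Sox3*, the X-linked SoxB1 gene, was at 5.74 and 5.51 CPM in wild-type, 5.10 and 6.05 in Δexon6/Δexon6, 7.32 and 7.57 in insASAY/insASAY and 12.2 and 10.7 CPM in Δexon6/+ cells. Here insASAY/insASAY stood between the Δexon6/+ libraries and the others, with no overlap. The rise in Δexon6/+ over wild-type was 2.03-fold (1.68 to 2.46, adjusted p = 5.57e-05, edgeR, Benjamini-Hochberg).

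*Sox21*, which counteracts SoxB1 factors on shared sites, was at 3.79 and 3.57 CPM in wild-type, 3.04 and 3.59 in Δexon6/Δexon6, 3.94 and 3.73 in insASAY/insASAY and 7.57 and 8.34 CPM in Δexon6/+ cells. The activators and their antagonist were therefore high in the same libraries, *Sox21* by 2.16-fold (1.74 to 2.67, adjusted p = 7.40e-05, edgeR, Benjamini-Hochberg). A long non-coding gene on the opposite strand, *Gm4675*, overlaps *Sox21*, with 20 and 22 reads in Δexon6/+ cells and 7 to 14 in the others, against 200 and 204 and 75 to 108 for *Sox21* itself. The kit marks strand, and the strand-aware counts used here keep them separate.

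*Sox11*, the SoxC gene with the lowest level per length, was at 45.9 and 43.2 CPM in wild-type, 45.9 and 45.2 in Δexon6/Δexon6, 37.3 and 38.3 in insASAY/insASAY and 83.8 and 78.4 CPM in Δexon6/+ cells. It rose 1.82-fold (1.66 to 1.99, adjusted p = 4.81e-07, edgeR, Benjamini-Hochberg), with the narrowest interval of the 5. The study took Tbxt targets from published binding (ChIP-seq) peaks and kept those that differed from wild-type in these libraries. *Sox11* and *Sox21* are both on that list, so their place on it is no independent evidence of a direction.

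The other SoxC genes stayed near wild-type in this line. *Sox4*, the most broadly expressed of the group, was at 114 and 102 CPM in wild-type, 115 and 133 in Δexon6/Δexon6, 115 and 114 in insASAY/insASAY and 112 and 106 CPM in Δexon6/+ cells. The Δexon6/+ libraries fell within the wild-type range, with a log2 fold change of 0.00 and an interval of -0.15 to 0.15 (adjusted p = 0.986, edgeR, Benjamini-Hochberg). *Sox12* was at 77.5 and 82.7 CPM in wild-type, 95.2 and 96.2 in Δexon6/Δexon6, 90.5 and 96.2 in insASAY/insASAY and 80.7 and 76.2 CPM in Δexon6/+ cells. The lines with edits on both alleles lay above wild-type and Δexon6/+ without overlap, and its interval in Δexon6/+ was -0.15 to 0.09 around a log2 fold change of -0.03 (adjusted p = 0.739). For both genes the interval leaves out changes as large as those of the other 5.

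**Figure D1:**
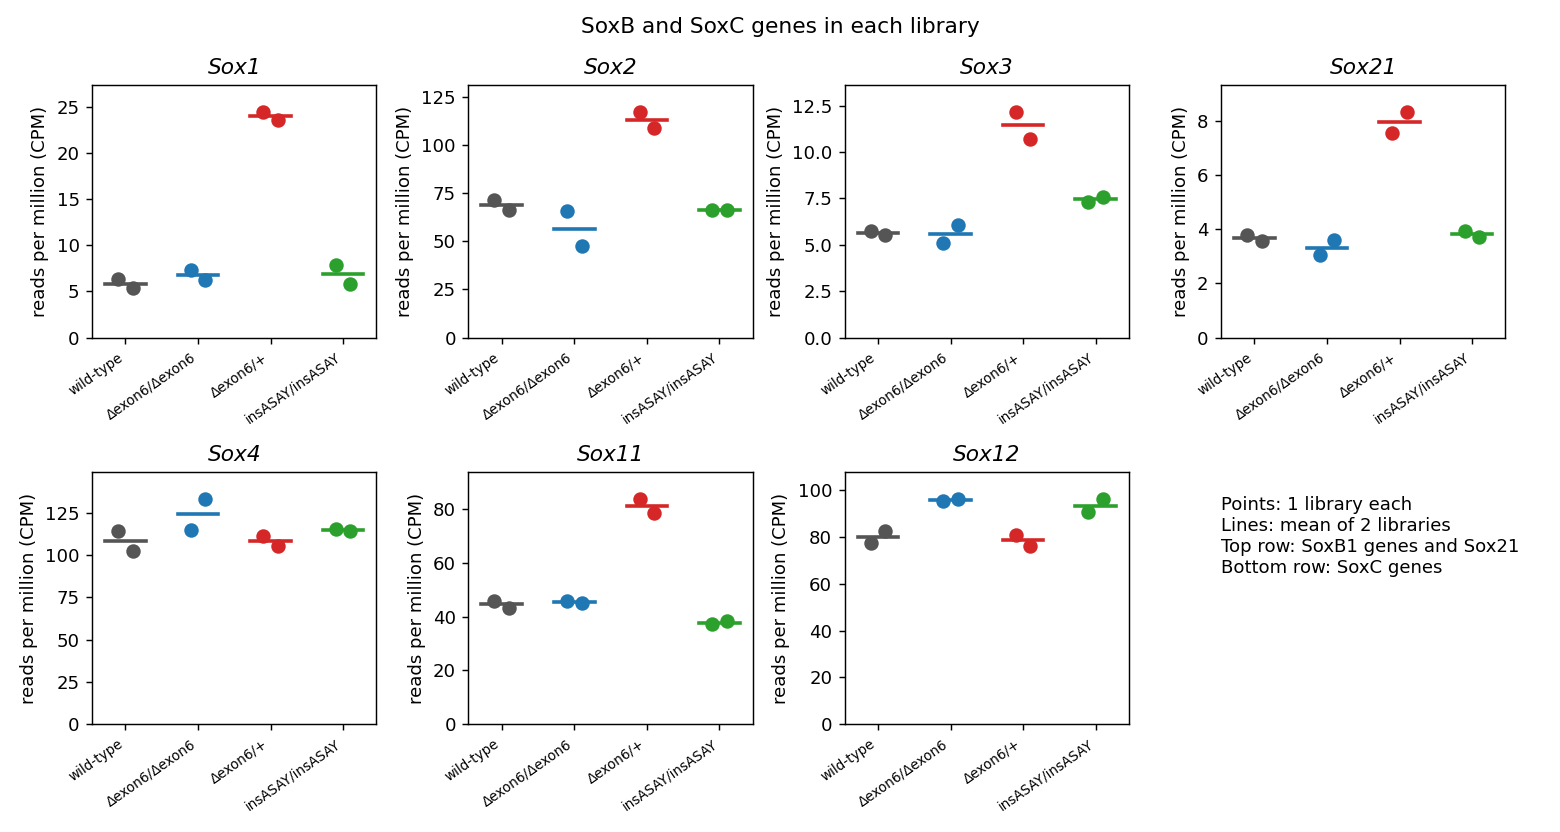
CPM (counts scaled to library size, linear axis from 0) of each Sox gene by *Tbxt* genotype. Each point is 1 library and each line the mean of 2 libraries. For *Sox1*, *Sox2*, *Sox3*, *Sox21* and *Sox11* both Δexon6/+ libraries lie above the other 6, while *Sox4* and *Sox12* show no such gap.

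Being above all other 6 libraries is common in these data: 19.7% of tested genes had both Δexon6/+ libraries on top. Called higher against each of the other 3 genotypes is rarer, at 3.70% of tested genes, and the same 5 Sox genes met it. Against Δexon6/Δexon6, *Sox1* was higher by a log2 fold change of 1.83, *Sox21* by 1.26, *Sox3* by 1.03, *Sox2* by 1.00 and *Sox11* by 0.83, with adjusted p-values from 4.07e-07 to 3.11e-05 (edgeR, Benjamini-Hochberg). Among all genes 11.2% were called higher and 11.0% lower in that comparison (22.2% in all). From Δexon6/+ to insASAY/insASAY the log2 fold changes were -1.80 for *Sox1*, -1.10 for *Sox11*, -1.05 for *Sox21*, -0.77 for *Sox2* and -0.62 for *Sox3*, against 13.0% of genes called lower (27.5% in either direction, 14.6% higher). These comparisons share the Δexon6/+ libraries and are not independent of the one with wild-type. The value of *Sox3* rests nearest to the threshold, since the test against log2 0.5 gave an adjusted p of 0.285 for it.

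The 2 lines with edits on both alleles showed small differences or none. In Δexon6/Δexon6 cells 0 of the 7 genes were called, against 12.7% of all genes (6.12% higher, 6.59% lower). Of the 7, 3 had an unadjusted p below 0.05 and DESeq2 called 0. *Sox12* had a log2 fold change of 0.26 (interval 0.14 to 0.38, adjusted p = 0.00355) and *Sox4* of 0.20 (0.05 to 0.35, adjusted p = 0.0435), both by edgeR, Benjamini-Hochberg and both under the fold threshold. *Sox2* had a log2 fold change of -0.29 (-0.52 to -0.05, adjusted p = 0.0550), and its clones differed, at 65.5 and 47.3 CPM. Without the first clone *Sox2* was called lower (log2 fold change -0.54, adjusted p = 9.20e-07), with the spread of the other genotypes assumed for the clone left. *Sox1*, *Sox3*, *Sox11* and *Sox21* had adjusted p-values from 0.327 to 0.967.

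In insASAY/insASAY cells, 0 of the 7 were called while 21.3% of all genes were (11.5% higher, 9.85% lower). Again 3 had an unadjusted p below 0.05 and DESeq2 called 0. *Sox3* had a log2 fold change of 0.41 (0.12 to 0.69, adjusted p = 0.0231), *Sox12* of 0.22 (0.10 to 0.34, adjusted p = 0.00534) and *Sox11* of -0.24 (-0.37 to -0.10, adjusted p = 0.00756), all by edgeR, Benjamini-Hochberg and none beyond the fold threshold. *Sox2* was within 0.29 of wild-type on the log2 scale at either end of its interval (-0.29 to 0.18). Compared directly, insASAY/insASAY and Δexon6/Δexon6 cells gave 0 calls among the 7, against 5.16% of all genes (2.79% higher, 2.38% lower), with 2 at an unadjusted p below 0.05 and 0 by DESeq2. *Sox11* came nearest (log2 fold change -0.27, adjusted p = 0.0121), and *Sox3* was at 0.41 (adjusted p = 0.0531). Without the second Δexon6/Δexon6 clone *Sox3* was called (0.54, adjusted p = 0.0107).

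**Figure D2:**
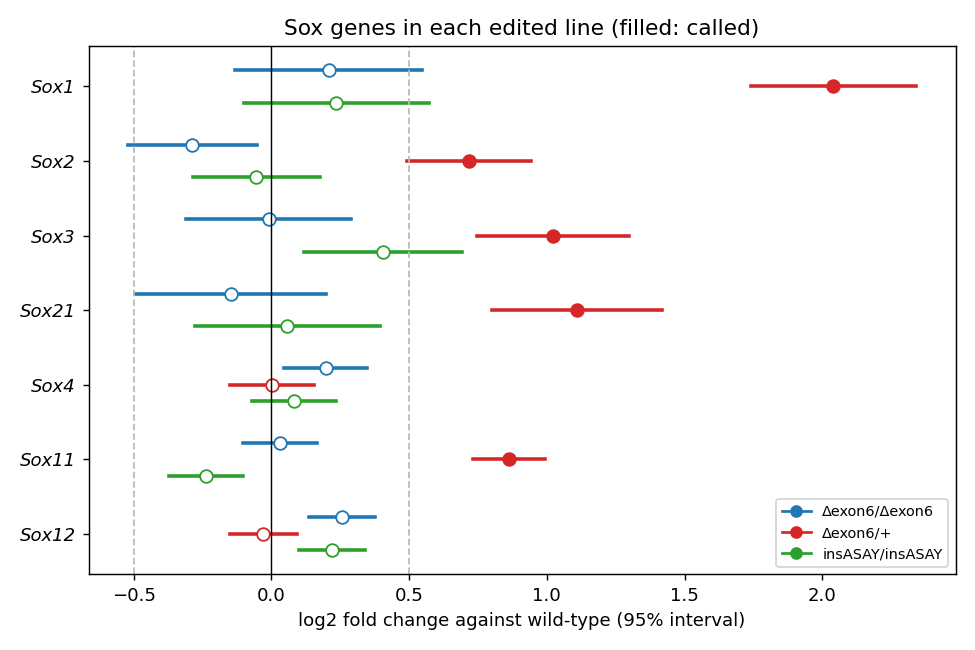
Log2 fold change against wild-type (horizontal axis, with 95% intervals from the edgeR fit) of each Sox gene in the 3 edited lines. Filled points passed both thresholds, and the dashed lines mark log2 0.5 in either direction. All 5 filled points belong to the Δexon6/+ line, and every interval of *Sox4* and *Sox12* stays within the dashed lines.

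Summed per length, the SoxB1 genes were at 38.7 and 35.9 RPKM in wild-type, 35.9 and 27.2 in Δexon6/Δexon6, 37.3 and 37.1 in insASAY/insASAY and 67.9 and 62.9 RPKM in Δexon6/+ cells, a mean ratio of 1.75 to wild-type. *Sox2* made up most of every sum, and its share went from 89.4% and 89.5% in wild-type to 83.9% and 84.0% in Δexon6/+ cells. *Sox1* went from 3.38% and 3.09% to 7.46% and 7.77% of the sum. The SoxB1 pool of the Δexon6/+ line was therefore larger and held proportionally more *Sox1*. The SoxC sum moved little, from 45.9 ± 1.17 RPKM in wild-type to 52.9 ± 2.78 in Δexon6/Δexon6, 49.5 ± 0.802 in insASAY/insASAY and 50.0 ± 2.07 in Δexon6/+ cells (SD, n = 2 each). Its makeup changed more, since *Sox11* went from 11.8% and 11.5% of the SoxC sum in wild-type to 19.6% and 19.4% in Δexon6/+ cells, and was at 9.19% and 9.21% in insASAY/insASAY.

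**Figure D3:**
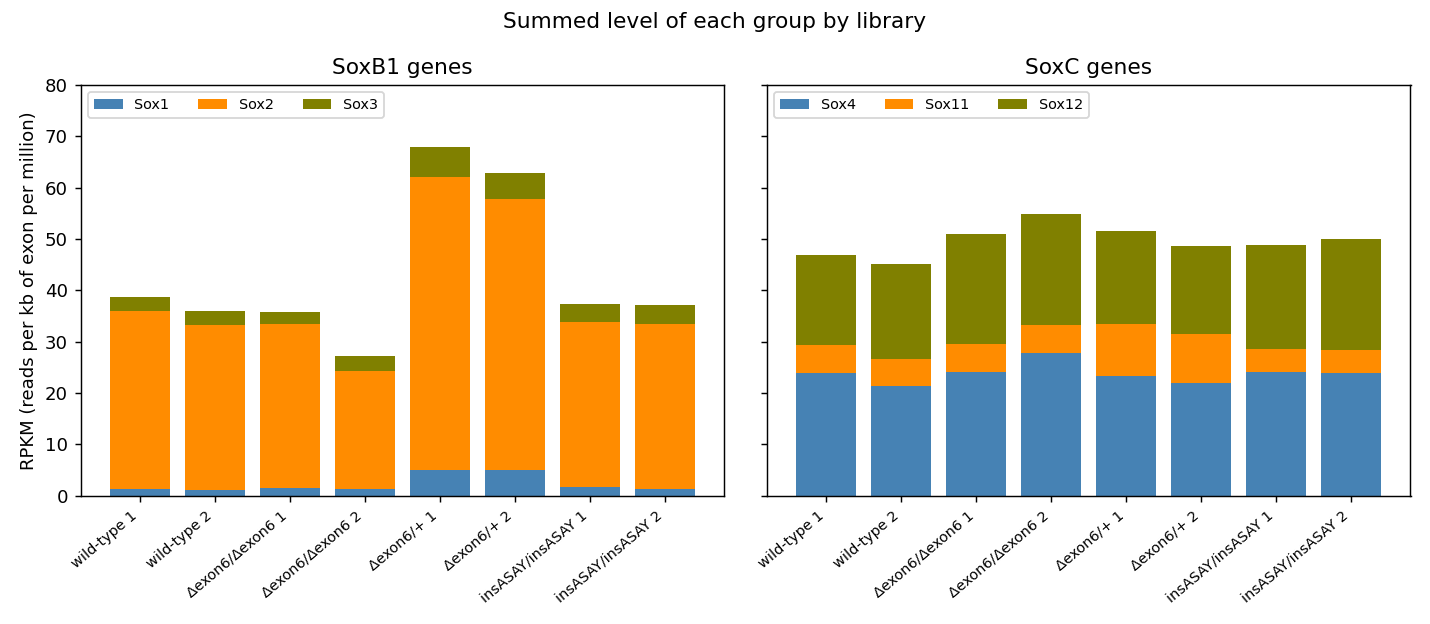
Summed level of the SoxB1 genes (left) and SoxC genes (right) in each library, in RPKM on a shared axis from 0, with 1 colour per gene. The SoxB1 bars of Δexon6/+ reach 67.9 and 62.9 RPKM against at most 38.7 elsewhere, while the SoxC bars run from 45.1 to 54.8.

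*Sox2* lies on chromosome 3, and its neighbours were examined because that chromosome stood apart in the Δexon6/+ line. Of the 848 tested genes of that chromosome 28.5% were called higher and 7.55% lower, with a median log2 fold change of 0.32, against 5.45% and 6.85% and a median of -0.01 on all others. The neighbourhood of *Sox2* itself did not show this: of 55 tested genes within 5 Mb, 4 were called higher and 0 lower, and their median was 0.04. The nearest tested gene on the centromeric side, *Dnajc19*, had a log2 fold change of -0.01 (adjusted p = 0.958). In bins of 10 Mb, the raised stretch began about 15 Mb past *Sox2*, with medians from 0.29 to 0.62 up to the bin border at 105 Mb. Beyond that border the medians were -0.68 and -0.58. On the other side of *Sox2*, the bin from -15 to -5 Mb had a median of 0.22. Whether the state of the chromosome had a part in the rise of *Sox2* was not tested beyond these values. The other 4 genes called lie on other chromosomes, and the medians of the genes within 5 Mb of them were 0.11 (*Sox1*), 0.03 (*Sox3*), 0.03 (*Sox11*) and 0.06 (*Sox21*).

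**Figure D4:**
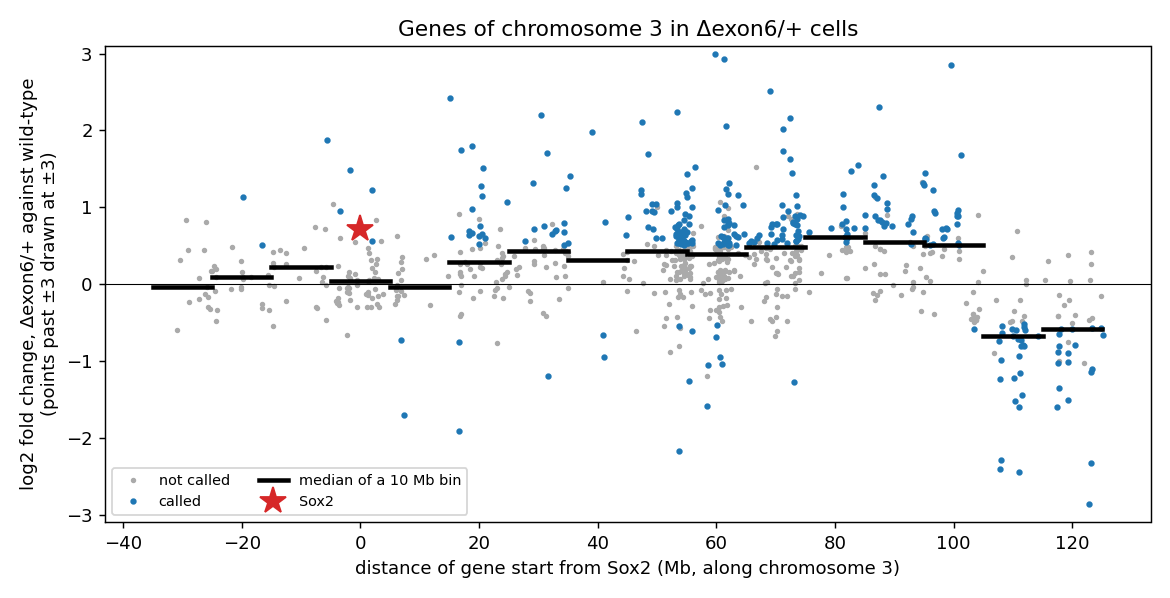
Log2 fold change of each tested gene of chromosome 3 in Δexon6/+ against wild-type cells (vertical axis, drawn at 3 where larger) by its distance from *Sox2* in Mb (horizontal axis). Blue points were called, black bars are medians of 10 Mb bins with at least 10 genes, and the star is *Sox2* at 0.72. The bin that holds *Sox2* lies near 0 (0.04), and the one from -15 to -5 Mb is at 0.22. Bins from 15 to 105 Mb lie above 0 and the last ones below.

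Across the 8 libraries, the 5 genes followed one another. Pearson correlations of their log2 CPM ran from 0.78 (*Sox3* with *Sox11*) to 0.95 (*Sox1* with *Sox21*), and those of *Sox12* with the 5 from -0.72 to -0.43. These are descriptions over 8 libraries in 4 genotypes, and they mostly restate the gap between the Δexon6/+ libraries and the rest. Of 9634 genes averaging 10 CPM or more, those most like *Sox1* were *Zgrf1*, *Polr3c* and *Pias3* (r of 0.99 each), all on chromosome 3. Those most like *Sox21* were *Gpr89* and *Pbxip1*, also on chromosome 3, and *Cpe*. *Sox11* was most like *4933434E20Rik*, again of chromosome 3, the chromatin remodeller gene *Chd7* and the coatomer gene *Arcn1*. For *Sox2* they were *Nme6*, *Dgat2* and the Wnt antagonist gene *Sfrp1* (r from 0.98 to 0.99), and for *Sox3* they were *Hs1bp3*, *Supt5* and *Atm*. *Sox4* (*Efhd2*, *1810030O07Rik*, *Rnf103*) and *Sox12* (*Ubtd2*, *Smarcb1*, *Spred2*) had a set of their own, with r from 0.95 to 0.98.

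Genes of the surrounding pathways were counted in lists chosen for their known roles, with earlier results of these data known. Their counts are therefore no independent evidence. Some genes stand on several lists, so counts of different lists are not separate results. *Pou5f1* and *Nanog* are on the lists of Oct4-Sox2 elements, Sox2 partners and ES cell markers. *Klf4*, *Esrrb* and *Sall4* are on those of Sox2 partners and ES cell markers, and *Cdx2* on those of streak and trophoblast genes. All 7 listed genes with a known Oct4-Sox2 composite element were called lower in Δexon6/+ cells, against 6.89% of all genes. The median log2 fold change of the 7 was -0.77. The list is not a full set of such genes, and the count holds for the listed ones only. *Sox2*, which was left off the list, was called higher in that line (0.72). *Fgf4*, a growth factor gene driven by such an element, went from 20.2 and 17.0 CPM in wild-type to 5.79 and 5.84 CPM in Δexon6/+ cells (log2 fold change -1.68, adjusted p = 1.18e-05, edgeR, Benjamini-Hochberg). *Lefty1*, a Nodal antagonist gene, went from 20.8 and 18.6 to 7.69 and 8.91 CPM (-1.25). *Nanog* (-0.80), *Zscan10* (-0.77), *Pou5f1* (-0.68), *Fbxo15* (-0.55) and *Utf1* (-0.52) were lower too. The direction was shared in part by the other lines. In Δexon6/Δexon6, where *Sox2* was not raised, 4 were called lower and 0 higher, against 6.59% and 6.12% of all genes. In insASAY/insASAY 3 were called lower and 2 higher (*Lefty1*, 1.34, and *Zscan10*, 0.74), against 9.85% and 11.5%. Tested directly, 2 were higher and 2 lower in Δexon6/+ than in Δexon6/Δexon6 (median -0.03), against 11.2% and 11.0%. From Δexon6/+ to insASAY/insASAY 2 were higher and 0 lower, against 14.6% and 13.0%. Comparisons with wild-type share its libraries.

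In Δexon6/+ cells the partner gene *Pou5f1* fell while *Sox2* rose. *Pou5f1* was at 295 and 282 CPM in wild-type, 214 and 156 in Δexon6/Δexon6, 233 and 228 in insASAY/insASAY and 176 and 184 CPM in Δexon6/+ cells. In RPKM, the ratio of *Sox2* to *Pou5f1* was 0.264 and 0.257 in wild-type, 0.335 and 0.332 in Δexon6/Δexon6, 0.310 and 0.318 in insASAY/insASAY and 0.728 and 0.645 in Δexon6/+ cells. This ratio was chosen after its values were seen and has no test. Of 14 Sox2 partners in pluripotent cells, 5 were called lower in Δexon6/+ and 0 higher (median -0.17), against 6.89% of all genes called lower. In Δexon6/Δexon6 6 were lower and 1 higher, against 6.59% lower, and in insASAY/insASAY 5 were lower and 1 higher, against 9.85% lower. *Klf5* (-0.73) and *Prdm14* (-2.19, at 0.163 to 1.00 CPM in these groups) were among those lower in Δexon6/+, while *Esrrb*, lower in both other lines (-1.04 and -0.56), was at -0.12 (adjusted p = 0.245).

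Some neural progenitor genes, but not all, were called higher in the line in which the SoxB1 genes were. Of 18, 14 were tested, and in Δexon6/+ cells 7 were called higher and 0 lower, against 6.60% of all genes called higher. The median log2 fold change of the 14 was 0.58. All 18 summed to 223 to 224 CPM in Δexon6/+ and 187 to 194 in wild-type. The sum was 210 to 256 CPM in Δexon6/Δexon6, a range that holds the Δexon6/+ values, and 196 to 203 in insASAY/insASAY. *Pax6*, a regulator of neural and eye progenitors, went from 3.0 and 2.12 CPM in wild-type to 6.74 and 5.93 CPM (1.31, adjusted p = 0.000370, edgeR, Benjamini-Hochberg). *Cdh2*, the gene of N-cadherin, went from 23.4 and 20.9 to 41.1 and 41.6 CPM (0.90, adjusted p = 5.67e-06). The zinc finger gene *Zfp521* went from 2.85 and 2.53 to 9.01 and 7.36 CPM (1.60, adjusted p = 8.74e-06).

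The other 4 were *Gbx2* (1.62), *Pou3f2* (2.42, at under 1 CPM in every library), *Irx3* (0.87) and *Pax3* (0.75). *Nes* (-0.43, adjusted p = 0.00968) and *Dll1* (0.42, adjusted p = 0.00452) did not pass the fold threshold. In Δexon6/Δexon6 cells 2 of the 14 were called higher (*Gbx2*, 0.95, and *Nes*, 0.81) and 3 lower (*Pax3*, *Dll1* and *Irx3*), against 6.12% and 6.59% of all genes. In insASAY/insASAY 2 were higher (*Gbx2*, 2.01, and *Zfp521*, 0.67) and 2 lower, with *Irx3* at -0.84, against 11.5% and 9.85%. Tested directly, 8 of the 14 were higher in Δexon6/+ than in Δexon6/Δexon6 and 1 was lower, where 11.2% and 11.0% of all genes were. In insASAY/insASAY 7 were lower and 1 higher than in Δexon6/+, against 13.0% and 14.6% of all genes. None of the genes called in Δexon6/+ from either list lies on chromosome 3.

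**Figure D5:**
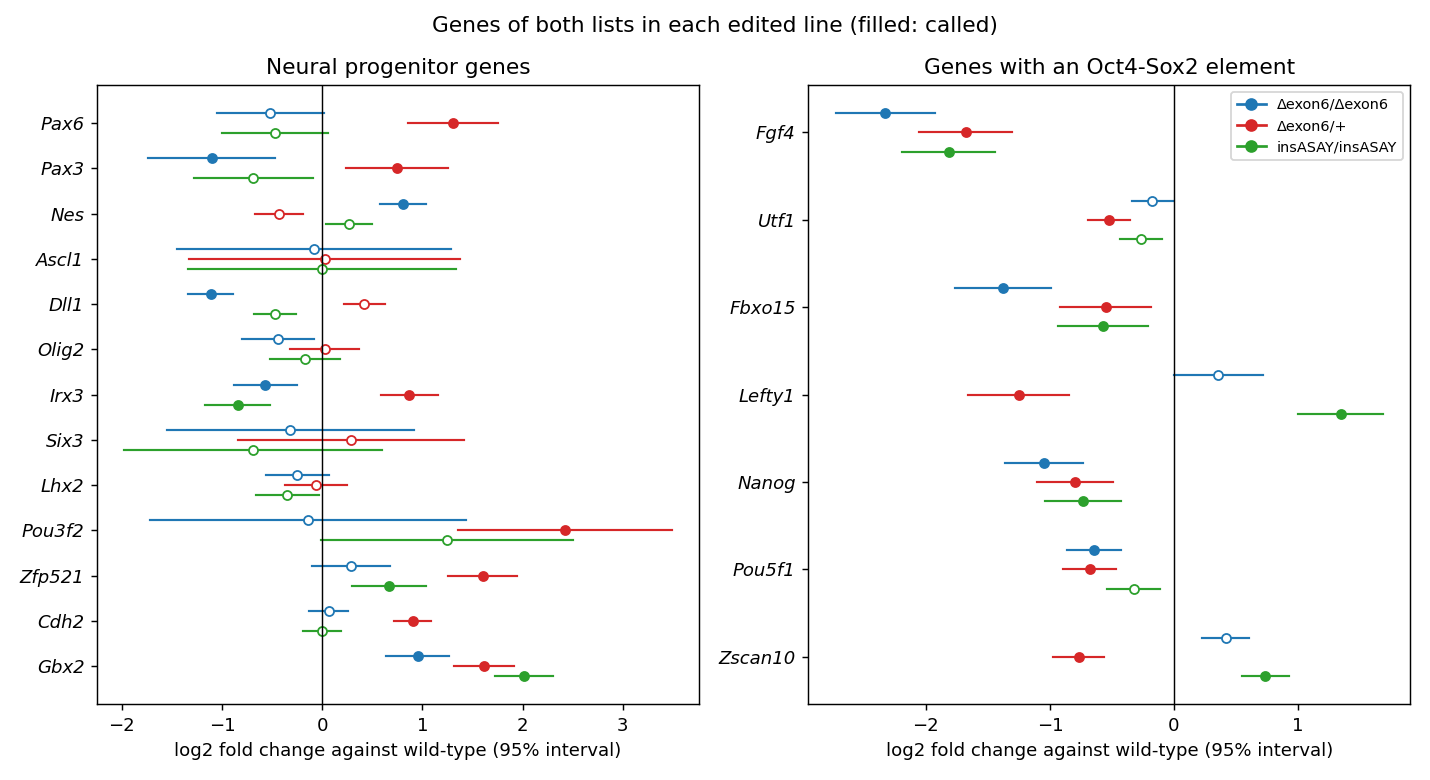
Log2 fold change against wild-type (horizontal axis, 95% intervals) in the 3 edited lines. Left are the tested neural progenitor genes, with 1 not shown, and right the 7 listed genes with a known Oct4-Sox2 element. Filled points were called. In Δexon6/+ 7 neural genes are filled to the right of 0 and all 7 Oct4-Sox2 genes to the left.

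Of 9 tested early neuronal and SoxC target genes, 0 were called higher in Δexon6/+ cells and 1 lower, with a median of -0.13, a count near the 6.60% and 6.89% of all genes. The 1 called was *Tubb3*, the neuronal tubulin gene bound by Sox4 and Sox11 in neurons, at 23.0 and 22.8 CPM in wild-type and 14.3 and 16.0 CPM in Δexon6/+ cells (-0.60, adjusted p = 0.000208, edgeR, Benjamini-Hochberg). It was higher in Δexon6/Δexon6 (0.54) and insASAY/insASAY (0.51). *Tead2*, another SoxC target, had a log2 fold change of 0.26 in Δexon6/+ (adjusted p = 0.0152), and the neuronal gene *Dcx* was at no more than 0.379 CPM in any library.

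Of the other 13 Sox genes 10 were tested, and in Δexon6/+ cells 1 was called higher and 3 lower, against 6.60% and 6.89% of all genes. *Sox13*, a SoxD gene, was at 27.9 and 25.6 CPM in wild-type and 43.2 and 41.6 CPM in Δexon6/+ cells (0.66, adjusted p = 1.46e-05, edgeR, Benjamini-Hochberg). *Sox15*, which can also pair with Oct4 in ES cells, was lower (-0.77), as were the SoxE genes *Sox9* (-0.75) and *Sox10* (-0.60). *Sox10* was also lower in Δexon6/Δexon6 (-1.27) and insASAY/insASAY (-1.33), at 1.5 to 1.9 CPM against 4.19 and 3.98 in wild-type. The endoderm gene *Sox17* was at most 1.09 CPM, with a log2 fold change of 0.23 in Δexon6/+ (adjusted p = 0.689).

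Of 9 tested genes of the primitive streak and of neuromesodermal progenitors, 2 were called higher in Δexon6/+ cells (*Cdx2*, 3.06, from 0.108 and 0.335 to 2.04 and 1.68 CPM, and *Fgf8*, 0.90) and 2 lower (*Eomes*, -0.95, and *Wnt3*, -0.62). Over all genes 13.5% were called in that line. In Δexon6/Δexon6 1 was higher and 1 lower, a count near the 12.7% of all genes called there, and in insASAY/insASAY 3 were higher and 1 lower, against 21.3%. Of 10 ES cell markers, 5 were lower in Δexon6/+ and 1, *Lin28a*, was higher (0.81), against 6.89% and 6.60% of all genes. *Tdgf1*, a Nodal co-receptor gene, went from 45.7 and 47.4 CPM to 9.01 and 10.5 CPM (-2.26, adjusted p = 1.27e-08, edgeR, Benjamini-Hochberg). Of the same 10 markers, 5 were also lower and 0 higher in Δexon6/Δexon6, against 6.59% and 6.12% of all genes. In insASAY/insASAY 3 were lower and 0 higher, against 9.85% and 11.5%. Tested directly, 1 was higher and 3 lower in Δexon6/+ than in Δexon6/Δexon6, against 11.2% and 11.0%. Markers of other cells were measured beside these results. Those of embryonic fibroblasts, which serve as feeders in ES cell culture, summed to 28.8 to 31.8 CPM in wild-type, 31.4 to 32.0 in Δexon6/+, 19.4 to 22.4 in Δexon6/Δexon6 and 17.1 to 17.6 CPM in insASAY/insASAY. Of the 7 tested, 2 were called higher and 1 lower in Δexon6/+, where 13.5% of all genes were called. In Δexon6/Δexon6 0 fibroblast markers were higher and 3 lower, against 6.12% and 6.59% of all genes. In insASAY/insASAY 0 were higher and 5 lower, against 11.5% and 9.85%. Endoderm markers summed to 7.85 to 13.3 CPM over all libraries. Of 6 tested, 1 was called higher in Δexon6/+ (*Foxa2*) and 0 lower, against 6.60% and 6.89% of all genes. Trophoblast markers summed to 111 to 117 CPM in Δexon6/+, 212 to 229 in wild-type, 205 to 263 in Δexon6/Δexon6 and 147 to 161 in insASAY/insASAY. *Krt18* was at 80.3 and 86.2 CPM in Δexon6/+ and 177 and 192 in wild-type. Of the 7 tested, 1 was higher and 2 lower in Δexon6/+, against 6.60% and 6.89% of all genes. In Δexon6/Δexon6 0 were higher and 3 lower, against 6.12% and 6.59%. In insASAY/insASAY 1 was higher and 4 lower, against 11.5% and 9.85%. The part of these marker sets in the Sox results was not tested.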

How the data were processed

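Each of the 8 libraries was deposited as a STAR gene count file, with whole-number read counts per Ensembl gene that the authors made from poly(A), strand-marking libraries aligned to mm10. The submitters' processing notes name STAR 2.7.2a and, for the authors' own tests, DESeq2 1.40.2. Each file holds 3 count columns, unstranded and by strand, and the one for the strand of the kit was used. Lines that name no gene stayed out. They held 26.2% to 29.0% of reads in 7 files, and the other file has no such lines. Of 48440 identifiers, 48058 matched GENCODE M21.

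Counts were scaled with TMM, filtered with filterByExpr (minimum count 10) and fitted with the edgeR 4.0.16 quasi-likelihood test (R 4.3.3) to all 8 libraries with 1 coefficient per genotype, with Benjamini-Hochberg adjustment over 17049 genes for each of 6 comparisons. The fit was also tested on simulated data. DESeq2 1.42.0 was an alternative. The Sox genes and all lists were chosen with earlier results of these data known. The genes named are the 7 Sox genes, *T*, genes of the lists (first those with the smallest adjusted p; those not called or not tested were chosen after their values were seen), nearest and overlapping genes, and the 3 genes of at least 10 CPM most correlated with each Sox gene. Replicates are separate samples of a genotype. The p-values weigh a difference against the spread between replicates, estimated over all 4 genotypes together. Only the Δexon6/Δexon6 libraries are known to come from different clones, so variation between clones of the other genotypes is not covered. Same-numbered replicates did not deviate together. Fitted intervals cover counting error and the spread between libraries only. Promoters are from RefSeq, GRCm38.p6. Values of some single genes of the lists are not reported here, and the counts of a list cover all its tested genes.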

Additional observations from a re-analysis of the deposited data

Results flagged for a closer look

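The level of 5 Sox genes in the Δexon6/+ line differed from that in the other edited lines, by a direct test of the difference in the edgeR fit with Benjamini-Hochberg adjustment. Between Δexon6/+ and Δexon6/Δexon6 cells the log2 difference was 1.833 for *Sox1*, 1.004 for *Sox2*, 1.033 for *Sox3*, 0.8325 for *Sox11* and 1.257 for *Sox21*. Between insASAY/insASAY and Δexon6/+ cells it was -1.804 for *Sox1*, -0.7722 for *Sox2*, -0.6187 for *Sox3*, -1.101 for *Sox11* and -1.051 for *Sox21*. Both sets rest on the same 2 Δexon6/+ libraries. The line with 1 edited allele thus stood apart from wild-type and from both lines with 2 edited alleles, and whether other clones of that genotype share this was not measured.

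Reads on the strand opposite to the gene were the other signal, in a count column that the comparisons do not use. At *Sox4* they came to a mean of 3.542 CPM in Δexon6/Δexon6 and 3.123 in insASAY/insASAY cells, against 2.13 and 2.12 in the wild-type libraries. The antisense gene *Gm26735* overlaps *Sox4*, with 21 to 39 reads a library in the column used. At *Sox11* the Δexon6/+ mean was 0.6109 CPM, against 0.180 and 0.521 in wild-type, and at *Sox21* it was 0.4504, against 0.325 and 0.372. At *Sox21* these are 13 and 10 reads in the Δexon6/+ libraries. As a share of the reads on both strands of *Sox21*, they were 6.10% and 4.67%, below the 7.89% and 9.43% in wild-type. At *Sox11* the shares were 0.673% and 0.827% in Δexon6/+ and 0.392% and 1.19% in wild-type. The column holds 4.11% to 4.78% of the stranded reads of a library over all genes.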

How the results depend on the processing

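The 42 fold changes of the 7 Sox genes were recomputed under 17 alternatives, 714 values in all, of which 697 kept their direction and their side of the thresholds. The 5 calls in Δexon6/+ cells held in each of its comparisons under DESeq2, other scaling, other filters, unstranded counting, fits to 2 genotypes and without any single replicate. A test against the fold threshold (TREAT) ended those of *Sox2* against wild-type (adjusted p = 0.124) and of *Sox3* between insASAY/insASAY and Δexon6/+ (0.285).

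Calls over all genes moved more. TREAT left 267 in Δexon6/Δexon6, 775 in Δexon6/+ and 1215 in insASAY/insASAY against wild-type, 1548 between Δexon6/+ and Δexon6/Δexon6, 134 between insASAY/insASAY and Δexon6/Δexon6 and 2192 between insASAY/insASAY and Δexon6/+, against 2167, 2299, 3639, 3778, 880 and 4696 in the report. It asks for more than the report's thresholds by construction. Between insASAY/insASAY and Δexon6/Δexon6, DESeq2 called 582 genes and a fit to those genotypes alone 572, and the cause was not tested.

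Leaving out 1 library, the genes called in Δexon6/Δexon6 against wild-type ranged from 1154 (without replicate 2) to 3368 (without replicate 1), and the Sox genes called from 0 to 1 (*Sox2*). Between insASAY/insASAY and Δexon6/Δexon6 they ranged from 371 (without insASAY/insASAY replicate 1) to 1529 (without Δexon6/Δexon6 replicate 2), and the Sox genes from 0 to 1 (*Sox3*). With 1 library left in a genotype, it is assumed to vary like the others.

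All 13 values that changed sign were small and not called. With DESeq2 *Sox3* in Δexon6/Δexon6 was at 0.00303, and with unstranded counts *Sox4* in Δexon6/+ was at -0.06176 and *Sox21* in insASAY/insASAY at -0.02222, where reads shared with antisense genes drop out. Leaving out 1 library gave -0.1397 to 0.1081 for *Sox3* and -0.01161 to 0.07715 for *Sox11* in Δexon6/Δexon6, -0.07502 to 0.08386 for *Sox4* and -0.07506 to 0.01803 for *Sox12* in Δexon6/+, -0.005032 to 0.4349 for *Sox1* in insASAY/insASAY, and -0.2152 to 0.2248 for *Sox1* between insASAY/insASAY and Δexon6/Δexon6.

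Same-numbered replicates share only a number, with correlations of deviations from -0.10 to 0.07. A replicate block changed no call of a Sox gene and gave 2255 calls over all genes in Δexon6/+ against wild-type. With 2 libraries a genotype, the lowest Sox count (75 reads, *Sox21*) leaves the widest intervals, and a change within them was not detectable at this depth.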
